A study of Mus musculus with 35 samples.

Results

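The comparison set MOSE cells at culture passage 7 (p7) against the same culture at passage 5 (p5). MOSE cells are mouse ovarian surface epithelial cells of adult virgin C57BL/6 females, kept in serum-supplemented DMEM and passaged serially until they transform without any added agent. The members were chosen by title: 3 arrays of p7 and 4 arrays of p5, of 35 in the series, each read as log2(MOSE/reference) for all 15254 clones of the NIA-15K cDNA set. Of these clones 10098 carry a symbol, for 7389 genes. On every array the reference channel held RNA of a whole newborn C57BL/6 male mouse. In direct arrays the MOSE RNA was labeled with Cy5 and in reverse arrays with Cy3, and the reverse ratios were turned. p5 had 2 direct and 2 reverse arrays, p7 had 2 direct and 1 reverse.

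Each passage gave 1 RNA preparation, so the arrays of a passage were technical replicates. The p-values below measured the spread between hybridizations of 2 preparations and not between cultures. The p5 arrays carried a run of array numbers of their own, while the p7 numbers belonged to a run with arrays of p14, p23 and p25, so passage and array run cannot be told apart in this comparison. The median MOSE signal ran from 801 to 1634 on the p5 arrays and from 1120 to 1960 on the p7 arrays. The scanner program marked 8.15% to 20.1% of clones as not found on the p5 arrays and 1.08% to 1.40% on the p7 arrays. Arrays of p5 correlated with each other at 0.608 to 0.765 over all clones, arrays of p7 at 0.681 to 0.790, and p5 with p7 arrays at 0.517 to 0.722.

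The ovarian surface epithelium covers the ovary with a sheet of mesothelium-like cells, which carry keratins and the transcription factor Wt1 and take part in repair after ovulation. In early culture such cells spread, divide and lay down matrix. Lysosomes digest proteins and membranes with cathepsins in a compartment kept acid by the vacuolar proton pump. Genes of the G2 and M phases, such as cyclins and topoisomerase II, are transcribed mainly in dividing cells, and many of their promoters hold CCAAT boxes and the cell cycle homology region.

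Both passages carried the labeled cell type. Wt1, a transcription factor of mesothelial cells, stood at log2 ratios of 5.33, 5.13, 6.47 and 6.10 on the p5 arrays (direct 1 and 2, reverse 1 and 2, the order used throughout) and at 5.55, 5.65 and 4.69 on the p7 arrays (direct 1 and 2, reverse 1). The ranges overlapped and the fitted difference of -0.42 (SE 0.39) did not pass the test (limma, adjusted p = 0.629). It was 0.45 with loess over the whole array in place of the print-tip blocks, 0.37 without the p7 reverse array and 0.16 in a fit of the MOSE channel alone. The median over 16 measured of 24 surface epithelium markers was 1.42 to 2.29 on the p5 arrays and 1.86 to 2.5 on the p7 arrays, where the median of all genes lay between -0.04 and 0.01. Markers of macrophages (6 of 18 measured, list median from -1.55 to -0.53 over the 7 arrays) and endothelium (5 of 13, from -2.05 to -0.94) lay below the newborn reference at both passages. Those of granulosa and steroidogenic cells (7 of 14, from -0.12 to 0.13) lay near it. In bulk RNA, fewer cells of a type and less RNA per cell cannot be told apart.

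With passage and dye orientation as terms, 55 of the 15254 clones (0.361%) differed between p7 and p5 at an adjusted p under 0.05 (limma, Benjamini-Hochberg adjustment over all clones). Of these, 35 were higher at p7 (0.229%) and 20 lower (0.131%), and they are the called clones below. At the methods' threshold of 0.01, 5 clones (0.0328%) were called. At an unadjusted p under 0.05 there were 1229 clones higher (8.06%) and 1249 lower (8.19%). The called rises ran from 0.78 to 2.74 on the log2 scale with a median of 1.20, and the called falls from -0.83 to -3.19 with a median of -1.27. The median difference of all clones was -0.01. The p5 and p7 arrays did not overlap for any of the 55 called clones. Among all clones, 5.7% had every p7 array above every p5 array and 6.2% had every p7 array below.

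The count of calls depended on the arrays and settings used. Leaving out single arrays left 2 to 46 calls, apart from 191 without the p7 reverse array. The sign of all 55 differences was kept each time, which is nearly certain for clones whose arrays do not overlap and so is no separate support. A fit of all 35 arrays called 358 clones (2.35%; 1.36% higher and 0.99% lower), among them 50 of the 55 in the same direction.

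The called clones with a symbol represented 23 genes higher at p7 (0.311% of 7389) and 14 lower (0.189%). The rises included lysosomal and endosomal genes (Ctsl, Cd63, Lamtor1), the iron store Ftl1, the kinase Mylk, the cyclin Ccnd2 and the nuclear RNA Neat1. The falls included the division genes Top2a and Ccna2, the matrix gene Col3a1 and the LIM protein gene Crip1.

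**Figure D1:**
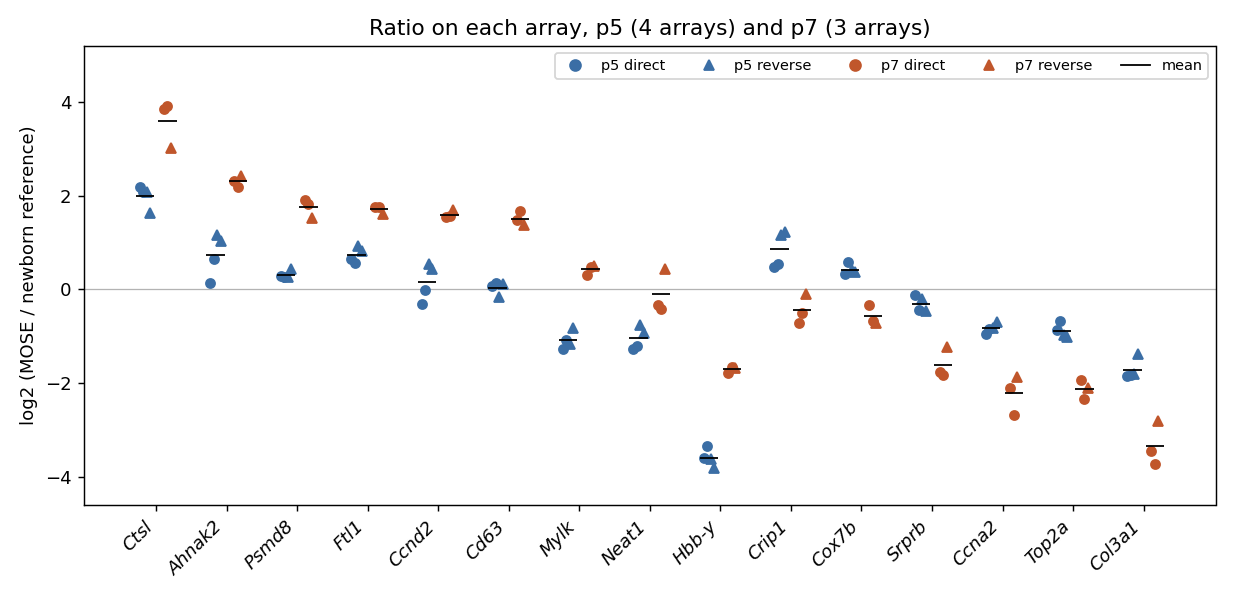
Log2 ratio of MOSE to newborn reference (vertical axis) on each of the 4 p5 arrays (blue) and 3 p7 arrays (orange) for 15 called genes, by the clone with the lowest p. Circles are direct arrays, triangles reverse arrays, and bars are the means of a passage. The arrays of the 2 passages do not overlap for any gene shown, and for Ctsl, Srprb, Ccna2 and Col3a1 the p7 reverse array is the p7 array nearest to p5.

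Ctsl encodes cathepsin L, a lysosomal cysteine protease, and both of its clones were called. Its clone H3028F03 read 2.18, 2.08, 2.09 and 1.64 at p5 and 3.86, 3.92 and 3.03 at p7. The neighboring clone H3028F04 read 1.5, 1.94, 1.78 and 1.85 at p5 and 3.93, 4.26 and 3.07 at p7. In both clones the reverse p7 array was the lowest of the 3, and still above every p5 array. The fitted rises were 1.53 (SE 0.17, limma adjusted p = 0.0312) and 1.93 (SE 0.26, adjusted p = 0.0484). On 2 arrays the signal of the second clone reached 60000 or more, near the scanner's ceiling, which bounds the ratio there.

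Cd63 encodes a tetraspanin of late endosomes, lysosomes and exosomes, and all 3 of its clones were called. Clone H3075G01 read 0.08, 0.13, -0.17 and 0.11 at p5 and 1.48, 1.68 and 1.38 at p7, a rise of 1.45 (SE 0.12, limma adjusted p = 0.0173) or 2.73-fold. The other clones rose by 1.41 and 1.43. Cd63 thus stood level with the newborn reference at p5 and above it on each p7 array, by all 3 clones.

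Of the 38 lysosomal genes listed, 31 were measured, with 52 clones. Their median difference was 0.18, against -0.02 over all genes, and 24 genes were higher and 7 lower in value. Cd63 and Ctsl were called. At an unadjusted p under 0.05, 22 of the 52 clones were higher (42.3%, against 8.06% of all clones) and 2 were lower (3.85%, against 8.19%). In the fit of all 35 arrays 7 of these genes were called higher (1.79% of all 7389 genes were) and 0 lower.

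Other lysosomal genes were not called. Ctsa, the protective protein and carboxypeptidase of lysosomes, had the lowest adjusted p that missed it, 0.0513 from limma. It read -0.81, -0.51, -0.12 and -0.05 at p5 and 0.65, 0.20 and 0.96 at p7 (difference 1.07, SE 0.15). Just inside the threshold the adjusted p was 0.0495. Atp6v1h, a subunit of the proton pump's cytosolic sector, differed by 0.85 (adjusted p = 0.0807), and Lamp2, a lysosomal membrane glycoprotein, by 0.66 and 0.63 in 2 clones (adjusted p = 0.157 and 0.377). The clones of Ctsd, the aspartic protease cathepsin D, disagreed, at 1.03 and -0.07 (adjusted p = 0.0872 and 0.917). Ctsc and Ctsh, other cathepsins, had values of the other sign (-0.69 and -0.24 for the clones of Ctsc, -0.59 for Ctsh). Lamtor1, which anchors the Ragulator complex on the lysosomal membrane and stood outside the list, was called (0.84, SE 0.10, limma adjusted p = 0.0393). On the p7 reverse array the median of the lysosomal list was 0.50, and on the p7 direct arrays 0.43 and 0.39, all above the 4 p5 arrays, which reached 0.18 at most.

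Ftl1 encodes the ferritin light chain, which stores iron. Its clone H3023H10 read 0.64, 0.56, 0.93 and 0.83 at p5 and 1.76, 1.76 and 1.61 at p7, a rise of 0.99 (SE 0.12, limma adjusted p = 0.0407). The other 3 Ftl1 clones differed by 0.75 to 1.12 in the same direction and were not called, 1 of them at an adjusted p of 0.0519. A clone annotated only as similar to a rat ferritin light chain, H3011G06, was called too, with 0.53, 0.47, 0.88 and 0.57 at p5 and 1.56, 1.71 and 1.60 at p7. Among the other genes of the oxidative stress list (31 of 39 measured, median 0.03), Hmox1, the heme oxygenase that frees iron from heme, and Sqstm1, an autophagy receptor, differed by 0.65 and 0.72, and Gpx1, a glutathione peroxidase, by -0.73, none of them called. The Hmox1 ratio had both channels lower at p7, the reference by 0.99 and the MOSE channel by 0.31. Of the 40 clones of the list 9 were higher and 3 lower at an unadjusted p under 0.05 (22.5% and 7.5%, against 8.06% and 8.19% of all clones), and the 4 Ftl1 clones were among the 9. The Ftl1 clones thus made up much of the upper end of a list whose median was close to 0. Fth1, the ferritin heavy chain gene, differed by 0.07 and was not called. The highest gene of the list was Cyp1b1, at 1.13, also not called.

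Mylk encodes myosin light chain kinase, which starts smooth muscle type contraction. It read -1.27, -1.08, -1.16 and -0.82 at p5 and 0.31, 0.48 and 0.50 at p7, a rise of 1.54 (SE 0.13, limma adjusted p = 0.0173). The list of actin and actomyosin genes, which does not hold Mylk, had a median of -0.08 over 34 measured genes and no call. Ahnak2, a large scaffold protein, rose by 1.65 (SE 0.18, adjusted p = 0.0312), from between 0.13 and 1.17 at p5 to between 2.19 and 2.43 at p7. Psmd8, a regulatory subunit of the proteasome, rose by 1.43 (SE 0.13, adjusted p = 0.0188), from between 0.26 and 0.44 to between 1.52 and 1.91. Psmd8 was the called member of a list whose median over 39 proteasome genes was 0.08.

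Ccnd2 encodes cyclin D2, which drives entry into the cell cycle. Its 5 clones did not give 1 answer. Clone L0024F11 read -0.32, -0.02, 0.55 and 0.44 at p5 and 1.54, 1.56 and 1.69 at p7 and was called (1.51, SE 0.15, limma adjusted p = 0.0285). Of the other clones, 3 differed by 0.54 to 0.71 and 1 by -0.06, and none was called. Neat1, a long noncoding RNA that builds paraspeckles, read -1.27, -1.21, -0.76 and -0.93 at p5 and -0.34, -0.41 and 0.43 at p7, a called rise of 1.03 (SE 0.12, adjusted p = 0.0369). Malat1, its neighbor in the genome and a nuclear speckle RNA, differed by -0.38 to -0.03 over 3 clones with all ranges overlapping, and none was called. The Malat1 clones were near the scanner's ceiling on 1, 3 and 7 of the 7 arrays.

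Top2a encodes topoisomerase II alpha, which untangles replicated chromosomes. Clone H3036F09 read -0.87, -0.67, -0.98 and -1.01 at p5 and -1.94, -2.35 and -2.10 at p7, a fall of 1.27 on the log2 scale (SE 0.14, limma adjusted p = 0.0312). A second Top2a clone, whose spots were marked as not found on all 4 p5 arrays, differed by -0.72 and was not called. Ccna2 encodes cyclin A2, which acts from S phase into mitosis. Its clone H3083D02 read -0.96, -0.84, -0.82 and -0.70 at p5 and -2.10, -2.68 and -1.87 at p7, a fall of 1.33 (SE 0.17, adjusted p = 0.0428). The other Ccna2 clones differed by -1.32 and -0.72 (adjusted p = 0.0726 and 0.17), and for each of the 3 clones the p7 arrays lay below all p5 arrays.

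The list of 56 genes of G2, M phase and mitosis had 49 measured members and 76 clones. The median difference was -0.44, with 42 genes lower and 7 higher in value, and Top2a and Ccna2 were called. At an unadjusted p under 0.05, 38 of the 76 clones were lower (50%, against 8.19% of all clones) and 5 were higher (6.58%, against 8.06%). The fit of all 35 arrays called 9 of the genes lower (1.46% of all 7389 genes were) and 0 higher. The list median was -0.24 to -0.18 on the p5 arrays and -0.72 to -0.49 on the p7 arrays, so the 2 sets of arrays did not overlap.

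Members with a low p that were not called belonged to several steps of mitosis. Cdc20, which activates the anaphase promoting complex, read 0.12, 0.04, -0.19 and -0.03 at p5 and -1.20, -1.17 and -0.78 at p7 (difference -1.03, limma adjusted p = 0.0519). Ccnb2, a mitotic cyclin, differed by -0.81 (adjusted p = 0.0612), Anln, an organizer of the cytokinetic ring, by -0.79, and Cdca8 of the chromosome passenger complex by -0.87. Condensin subunit Smc2 differed by -0.85 and -0.50 in its clones with the lowest p. The clones of Racgap1, of the centralspindlin complex, gave -0.85 and 0.21, the latter with an SE of 1.33. Pttg1, which encodes securin, went the other way, at 0.62, 0.57 and 0.33 in 3 clones. Genes of S phase and DNA replication (35 of 45 measured) had a median of -0.14 with none called. Of their 46 clones 12 were lower at an unadjusted p under 0.05 (26.1%, against 8.19% of all clones) and 0 higher. Rrm2, a subunit of ribonucleotide reductase, differed by -0.96, -0.38 and -0.30 in 3 clones, and Mcm5 of the replicative helicase by -0.58.

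**Figure D2:**
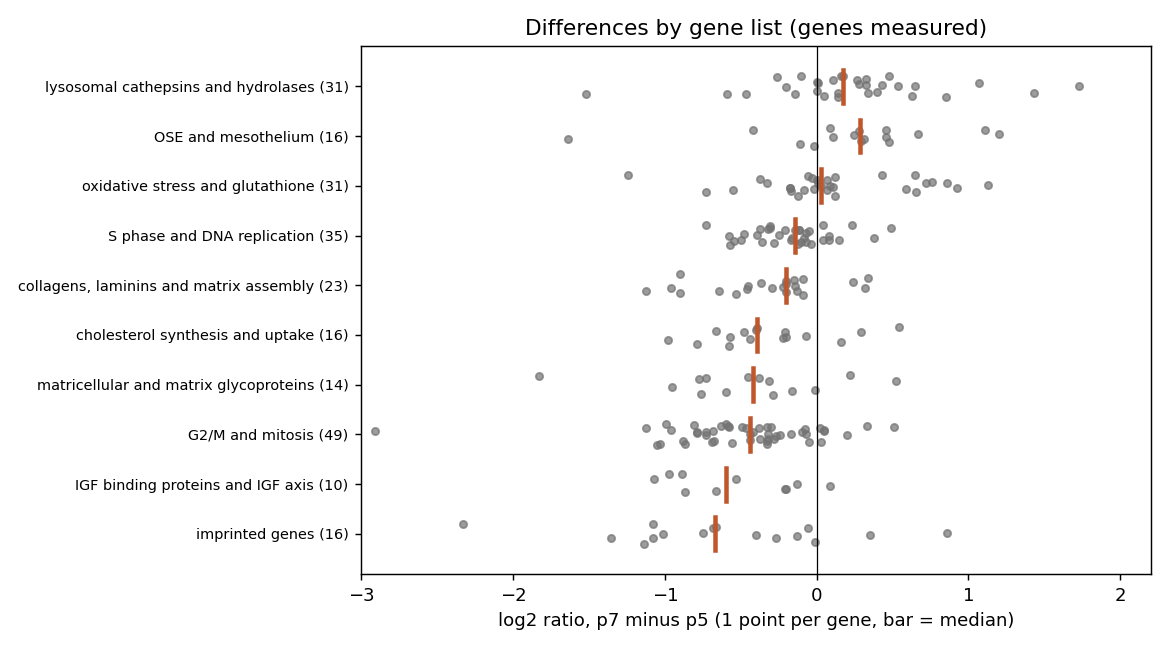
Log2 difference p7 minus p5 (horizontal axis) of each measured gene, as the mean of its clones, in 10 gene lists, with the number of genes measured in parentheses and an orange bar at the median. The medians run from -0.67 for imprinted genes and -0.44 for G2/M genes to 0.18 for lysosomal genes and 0.28 for surface epithelium markers, and 1 gene of the collagen list lies outside the axis.

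The promoters of genes from the G2/M and lysosomal lists are shown because 38 clones of the first list were lower and 22 of the second higher at an unadjusted p under 0.05, and because both kinds of gene are known for short shared motifs. The sequences are RefSeq's, on GRCm38.p6, from 250 bases before to 50 after an annotated start, 5′ to 3′. Capitals mark CCAAT (or its reverse complement ATTGG) and the cell cycle homology region TTTGAA (or TTCAAA) in the first 3, and CACGTG, the core bound by TFEB-family factors and other helix-loop-helix proteins, in the last 2.
Top2a (chr11:99024140-99024439, minus strand): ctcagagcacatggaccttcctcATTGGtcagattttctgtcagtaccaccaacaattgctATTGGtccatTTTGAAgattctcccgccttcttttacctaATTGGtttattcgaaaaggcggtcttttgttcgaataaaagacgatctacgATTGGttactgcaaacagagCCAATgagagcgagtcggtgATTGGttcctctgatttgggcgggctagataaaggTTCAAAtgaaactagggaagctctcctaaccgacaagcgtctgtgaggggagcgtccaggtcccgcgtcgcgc
Cdc20 (chr4:118437294-118437593, minus strand): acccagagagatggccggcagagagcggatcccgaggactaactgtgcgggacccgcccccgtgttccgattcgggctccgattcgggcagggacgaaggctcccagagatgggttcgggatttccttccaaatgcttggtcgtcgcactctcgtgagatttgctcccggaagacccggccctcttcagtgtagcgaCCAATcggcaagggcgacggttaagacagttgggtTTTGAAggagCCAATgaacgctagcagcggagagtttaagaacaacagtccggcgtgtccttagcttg
Ccnb2 (chr9:70421505-70421804, minus strand): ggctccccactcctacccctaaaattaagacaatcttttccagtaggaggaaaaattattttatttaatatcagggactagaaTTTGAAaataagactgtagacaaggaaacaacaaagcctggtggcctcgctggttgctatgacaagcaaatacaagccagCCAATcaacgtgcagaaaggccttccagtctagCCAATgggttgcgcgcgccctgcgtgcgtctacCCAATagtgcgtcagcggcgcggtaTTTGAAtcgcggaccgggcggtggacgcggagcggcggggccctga
Ctsl (chr13:64370471-64370770, minus strand): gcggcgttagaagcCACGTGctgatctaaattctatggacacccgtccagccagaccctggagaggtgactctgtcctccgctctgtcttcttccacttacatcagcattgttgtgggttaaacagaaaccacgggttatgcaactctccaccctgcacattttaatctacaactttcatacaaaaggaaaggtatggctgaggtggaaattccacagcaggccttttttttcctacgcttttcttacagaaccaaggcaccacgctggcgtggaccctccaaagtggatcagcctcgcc
Ctsa (chr2:164833523-164833822, plus strand): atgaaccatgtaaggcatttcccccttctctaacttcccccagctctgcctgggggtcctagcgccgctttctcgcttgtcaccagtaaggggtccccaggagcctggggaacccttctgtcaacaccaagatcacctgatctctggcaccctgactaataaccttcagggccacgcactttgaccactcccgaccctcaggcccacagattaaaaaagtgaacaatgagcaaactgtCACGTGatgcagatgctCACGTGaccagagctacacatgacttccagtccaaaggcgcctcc

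The Top2a window held CCAAT at 6 places and TTTGAA at 2, counted on both strands, Cdc20 at 2 and 1, and Ccnb2 at 3 and 2. Of the 49 measured G2/M genes 41 had a promoter sequence, and TTTGAA stood in 26 of them (63.4%, against 14.5% of 5912 measured genes), CCAAT in 28 (68.3%, against 43.3%). The median difference was -0.46 for the 26 genes with TTTGAA and -0.44 for the 15 without. It was -0.43 for the 28 genes with CCAAT and -0.60 for the 13 without, and neither difference was tested. CACGTG stood in 10 of 24 lysosomal promoters (41.7%, against 12.6% of measured genes), 1 time in that of Ctsl and 2 times in the printed window of Ctsa and 0 times in that of its other annotated start (chr2:164832622-164832921), and 0 times in that of Cd63. The median difference was 0.35 with it and 0.12 without, also not tested. A gene with several annotated starts was counted if any of its windows held the letters, and a match is a description, not a binding site.

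Col3a1 encodes the alpha 1 chain of type III collagen, a fibrillar collagen of loose connective tissue. Clone H3114H12 read -1.85, -1.83, -1.80 and -1.37 at p5 and -3.46, -3.73 and -2.82 at p7, a fall of 1.55 (SE 0.17, limma adjusted p = 0.0312). Clone H3133G03 fell by 1.61 (SE 0.19, adjusted p = 0.0369). The other 2 Col3a1 clones differed by -1.26 and -0.07 and were not called. In the called clones a signal was near the scanner's ceiling on 2 and 3 of the 7 arrays, and H3114H12 had a spot marked as not found on 1 p5 array.

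Of 32 collagen, laminin and matrix assembly genes 23 were measured, with a median of -0.20, and Col3a1 was the called member. The list median was -0.92 to -0.48 on the p5 arrays and -1.08 to -0.82 on the p7 arrays, so the ranges overlapped. At an unadjusted p under 0.05, 13 of 37 clones were lower (35.1%, against 8.19% of all clones) and 4 higher (10.8%, against 8.06%). Col6a1, Col4a1 and Serpinh1, the collagen chaperone, differed by -0.90, -0.70 and -0.53 in their clones with the lowest p, each without a call. The clones of Col1a2, a chain of type I collagen, gave 0.59 and 4.99, the latter with an SE of 2.30 and with spots marked as not found on all 4 p5 arrays. Loess over the whole array moved the median of the list to -0.51. Among matricellular genes (14 of 26 measured, median -0.42), Fn1, which encodes fibronectin, read -2.38, -2.55, -2.15 and -2.09 at p5 and -5.22, -4.69 and -2.97 at p7. Its difference of -1.83 (SE 0.34) missed the threshold (limma adjusted p = 0.0836), and the p7 arrays spread over more than the p5 arrays did. In the fit of all 35 arrays Fn1 was called (-1.94, limma adjusted p = 0.000868). The matricellular list median was -1.35 to -0.67 on the p5 arrays and -1.72 to -0.97 on the p7 arrays, again overlapping. In the MOSE channel alone the median difference of that list was -0.09. Lists with ratio medians near 0 stood there at 0.28 (translation factors), 0.11 (oxidative stress) and 0.00 (high mobility group and histone genes). Tnc, tenascin C, differed by -0.60 and Spp1, osteopontin, by -0.76, with p-values far from the threshold, and both were above 0 in a fit of the MOSE channel alone (0.75 and 0.41). Sparc, a collagen-binding matricellular protein, differed by -0.90 in clone H3026D08 (adjusted p = 0.0538) and by -0.39 to -0.15 in 3 others.

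The remaining called falls were of genes with mixed roles. Crip1, a small LIM protein, read 0.47, 0.55, 1.17 and 1.23 at p5 and -0.71, -0.50 and -0.10 at p7 (fall of 1.19, SE 0.11, limma adjusted p = 0.0195). Srprb, a subunit of the receptor that docks ribosomes at the ER, fell by 1.27 (SE 0.17, adjusted p = 0.0495). Hnrnpdl, an RNA-binding protein, fell by 1.43 in clone H3147D01 (SE 0.12, adjusted p = 0.0188) and differed by -0.47 in another. Snhg5, a host of small nucleolar RNAs, fell by 1.04, Ehd4, an endocytic ATPase, by 0.86 and Kbtbd12 by 0.83. Cox7b, a small subunit of cytochrome c oxidase, fell by 1.02, whereas the 44 measured oxidative phosphorylation genes had a median of -0.15 and held no other call. The 46 measured splicing factors and hnRNPs, with a median of -0.08, held 2 called genes, Hnrnpdl and Tra2a (0.189% of all genes were called lower). The p5 spots of Tra2a were marked as not found.

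Gene lists of lipid and growth factor metabolism had lower values at p7 with no call. The median over 16 of 25 cholesterol synthesis and uptake genes was -0.40, and 10 of 18 clones were lower at an unadjusted p under 0.05 (55.6%, against 8.19% of all clones) and 1 higher (5.56%, against 8.06%). The list median was -0.08 to 0.11 on the p5 arrays and -0.39 to -0.29 on the p7 arrays. Idi1, the isopentenyl diphosphate isomerase, was the uncalled fall with the lowest p: it read 0.11, -0.04, 0.05 and 0.13 at p5 and -0.81, -0.59 and -0.78 at p7 (difference -0.79, SE 0.11, limma adjusted p = 0.0515). Fdft1, squalene synthase, differed by -0.58. In the fit of all 35 arrays 2 genes of the list were called lower, among them Idi1 (adjusted p = 0.0023), and 1 higher, Nsdhl, a sterol dehydrogenase (0.53, adjusted p = 0.00901).

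The IGF axis had a median of -0.60 over 10 of 14 genes, with 7 of 16 clones lower at an unadjusted p under 0.05 (43.8%, against 8.19% of all clones) and 0 higher. The list median was -0.80 to -0.31 on the p5 arrays and -1.10 to -0.72 on the p7 arrays, so the ranges overlapped. In the MOSE channel alone, centered on the array median, the median difference of the list was -0.12. Lists with ratio medians near 0 did not all stand at 0 there: translation factors were at 0.28, oxidative stress genes at 0.11 and high mobility group and histone genes at 0.00. Igf1, the growth factor, read -0.28, -0.09, 0.10 and 0.28 at p5 and -1.20, -1.38 and -0.53 at p7 in clone H3099C09 (difference -0.95, limma adjusted p = 0.0515). Its second clone differed by -0.79, Igfbp5, a secreted binding protein, by -1.07 and Igfbp3 by -0.89. Imprinted genes, expressed from 1 parental allele and many of them tied to fetal growth, had a median of -0.67 over 16 of 24 genes. In the MOSE channel alone their median difference was -0.07, also below the lists named above for that channel. Peg3, a zinc finger gene, differed by -1.75 and -0.96 in 2 clones and Peg10, a retrotransposon-derived gene, by -0.85, -0.74 and -0.65 in 3, while Impact, a translation regulator, differed by 0.86. Igf2 stands in both lists. Of 27 imprinted clones 10 were lower at an unadjusted p under 0.05 (37.0%, against 8.19% of all clones) and 2 higher (7.41%, against 8.06%), with no call.

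Markers of the surface epithelium had a median difference of 0.28 over 16 genes, 12 of them higher and 4 lower in value, with no call, and the array ranges of the list overlapped. Krt7, a simple epithelial keratin, differed by 1.20 (SE 0.25, limma adjusted p = 0.0945), from between 0.90 and 1.44 to between 1.81 and 3.19. Aldh1a1, a retinaldehyde dehydrogenase, differed by 1.11 and Nr5a1, steroidogenic factor 1, by 0.67, and Cdh2, N-cadherin, by 0.64 and -0.42 in 2 clones. Cdh1, E-cadherin, had the lowest gene mean of the list, with clones at -0.45 and -2.83, the latter with an SE of 2.27. The galectin Lgals1 differed by -0.64 to 0.17 over 3 clones, Cryab, a small heat shock protein, by 0.76, and Aldoc, a glycolytic aldolase, by 0.04, none called. Cyp1b1, a xenobiotic and steroid hydroxylase, read -1.18, -0.91, -1.27 and -1.54 at p5 and -0.24, -0.03 and 0.05 at p7, and missed the threshold closely (difference 1.13, SE 0.16, adjusted p = 0.0545).

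Since each ratio has 2 channels, the channels were read separately, each centered on its array median. The channel differences are plain means of the p7 arrays minus those of the p5 arrays, without the dye term. With 2 direct and 1 reverse array at p7, a dye bias does not cancel in them. In 22 of the 55 called clones the reference channel differed further between p7 and p5 than the MOSE channel, against 49.1% of all clones. Among the 35 rises, the MOSE channel was higher at p7 in 26 and the reference channel lower in 23. Among the 20 falls, the MOSE channel was lower in 19. By list, the median MOSE difference was 0.63 for lysosomal, -0.21 for G2/M, -0.28 for collagen and -0.20 for cholesterol genes. The reference RNA was the same material by design, so a difference in its channel is no difference of the cells.

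The rises fell apart by channel. Mylk (1.49 in the MOSE channel, 0.00 in the reference), Psmd8 (1.24 and 0.10), Neat1 (1.04 and 0.03), Grina, a membrane protein (1.05 and 0.02), and Ahnak2 (1.13 and 0.01) differed in the MOSE channel. In Cd63 both channels were higher at p7, by 1.89 and 0.76 in clone H3075G01. In Ppie, a cyclophilin (-0.11 and -1.28), Syngr1, a synaptic vesicle protein (-0.46 and -1.62), Hsd17b4, a peroxisomal enzyme (-0.53 and -1.44), Ttc39c (-0.65 and -1.49) and Zglp1 (-0.11 and -1.05), the MOSE channel was not higher and the ratio rose with the reference channel lower at p7. Gdf9, an oocyte growth factor, and Uck2, a pyrimidine kinase, had reference values lower by 0.75 and 0.98 and MOSE values higher by 0.08 and 0.15. Other clones of Gdf9, Hsd17b4, Ttc39c and Uck2 were not called.

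**Figure D3:**
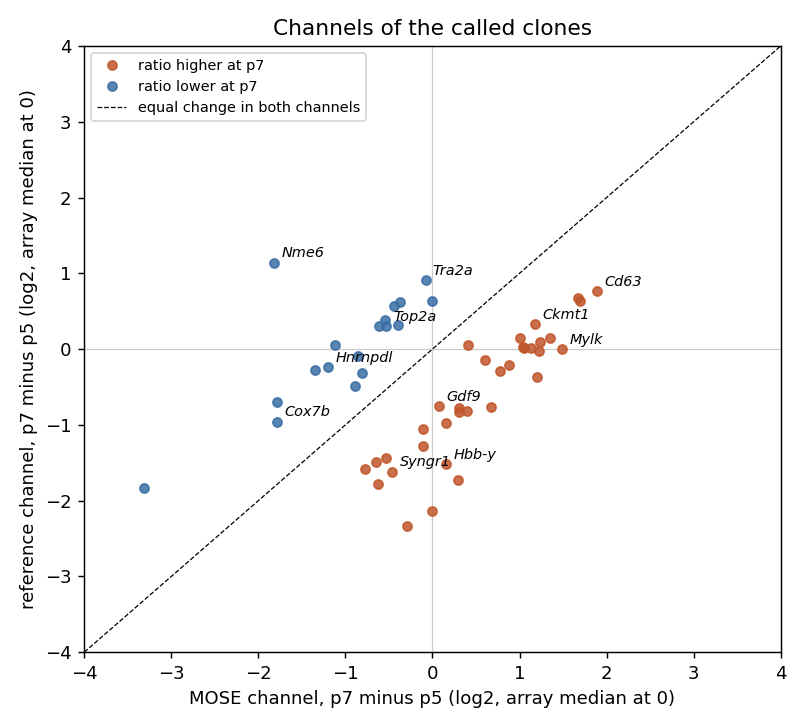
Difference p7 minus p5 of the median-centered log2 signal in the MOSE channel (horizontal axis) and the reference channel (vertical axis) for the called clones, orange where the ratio was higher at p7 and blue where lower. Points on the dashed line would have an equal change in both channels. Mylk lies on the horizontal axis at 1.49, Syngr1 below it at -1.62 in the reference channel, and 3 clones with spots near 0 lie outside the axes.

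Hbb-y, an embryonic beta globin, was the called member of the erythroid markers, which belong to the newborn reference and not to the cells. Clone H3118A06 read -3.61, -3.34, -3.63 and -3.81 at p5 and -1.79, -1.66 and -1.67 at p7 (1.87, SE 0.13, limma adjusted p = 0.00717). Its MOSE channel differed by 0.16 and its reference channel by -1.52. The other Hbb-y clones differed by -0.31, 0.86 and 0.98. Hba-x, an embryonic alpha globin, differed by 1.34, with -0.86 in the reference channel, whereas the adult alpha globin Hba-a1 differed by -2.78 to -0.15 over 12 clones, none called. The 5 measured liver genes had a median of -0.54. The adult globin clones also showed how far the p7 arrays differed from each other: Hba-a1 clone H3122H10 read -8.16 and -7.97 on the direct arrays and -4.70 on the reverse array.

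Some calls rested on poor spots. Of the 55 clones, 5 rises and 8 falls had a spot marked as not found on at least 1 of the 7 arrays, and 4 rises and 3 falls had a signal under 1.5 times background on at least 1. Poor spots were not particular to the calls. No spot was marked as not found for 42 of the 55 clones and for 10684 of all 15254. On all 7 arrays, 48 of the 55 and 13856 of the 15254 lay at 1.5 times background or more. The spots of Pacsin2 and Tank were marked as not found on all 3 p7 arrays and held net signals of at most 24 and 322, so their ratios near 0 at p7 have no meaning as levels. The spots of Tra2a were marked as not found on all 4 p5 arrays, and those of Nme6 and of the called Prkcsh clone on 3 of them. Prkcsh, the beta subunit of glucosidase II, had a second clone that differed by -0.06. With clones limited to those at 1.5 times background or more on all 7 arrays, 305 of 13856 were called, 48 of the 48 such clones called before among them. The called Ctsl, Cd63, Col3a1, Ccna2 and Top2a clones lay at 2.92 times background or more on every array.

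The 2 passages could also be placed among all 9. Passage means were taken as the mean of the direct and reverse means, and no test was made. p7 was the lowest or highest passage for 25 of the 55 called clones (20.7% of all clones), and p5 for 29 (21.5%), with both true of 6. The called clones were chosen for a wide gap between these 2 passages, and that choice by itself raises these counts above the shares of all clones. Ctsl had a mean of 2.27 at p2 and 2.00 at p5, reached 3.46 at p7 and was back at 2.05 at p10, with means between 1.21 and 1.76 from p14 on. Ahnak2 (0.75 at p5, 2.34 at p7, 1.58 at p10), Ccnd2 (0.16, 1.62 and 0.72 in clone L0024F11) and Ftl1 (0.74, 1.68 and 0.80 in clone H3023H10) were likewise highest at p7 of all passages. Their p7 values stood out on both sides.

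From p2 over p5, p7 and p10 to p14, the means of Top2a were -1.82, -0.88, -2.12, -1.45 and 0.35, and those of Ccna2 -1.70, -0.83, -2.13, -1.69 and 0.46. Both were thus lower at p2 and p10 than at p5, and lowest at p7. The median of the G2/M list followed the same order, at -0.50, -0.19, -0.68, -0.48 and 0.26. The lysosomal list median was 0.30, 0.05, 0.40 and 0.23 from p2 to p10, so its p5 value was below both neighbors. Cd63 stood at 0.76, 0.04, 1.48 and 1.48 in the same order in clone H3075G01, and Mylk at 0.72, -1.08, 0.45 and -0.71.

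Another set of calls had a p5 value away from all other passages, which lay together. Nadk was at 1.19 at p5 and between -0.18 and 0.27 at the other 8 passages. Gdf9 was at -0.87 at p5 and between -0.16 and 0.15 elsewhere, Ppie at -1.35 and between -0.04 and 0.25, and Cox7b at 0.42 and between -0.79 and -0.43. Of the 23 clones for which p5 and not p7 was an extreme, the reference channel differed further than the MOSE channel in 14, and of the 19 for which p7 and not p5 was, in 4. The p5 arrays are those with the array run of their own and with the most spots not found, and the part of either in these values was not tested.

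**Figure D4:**
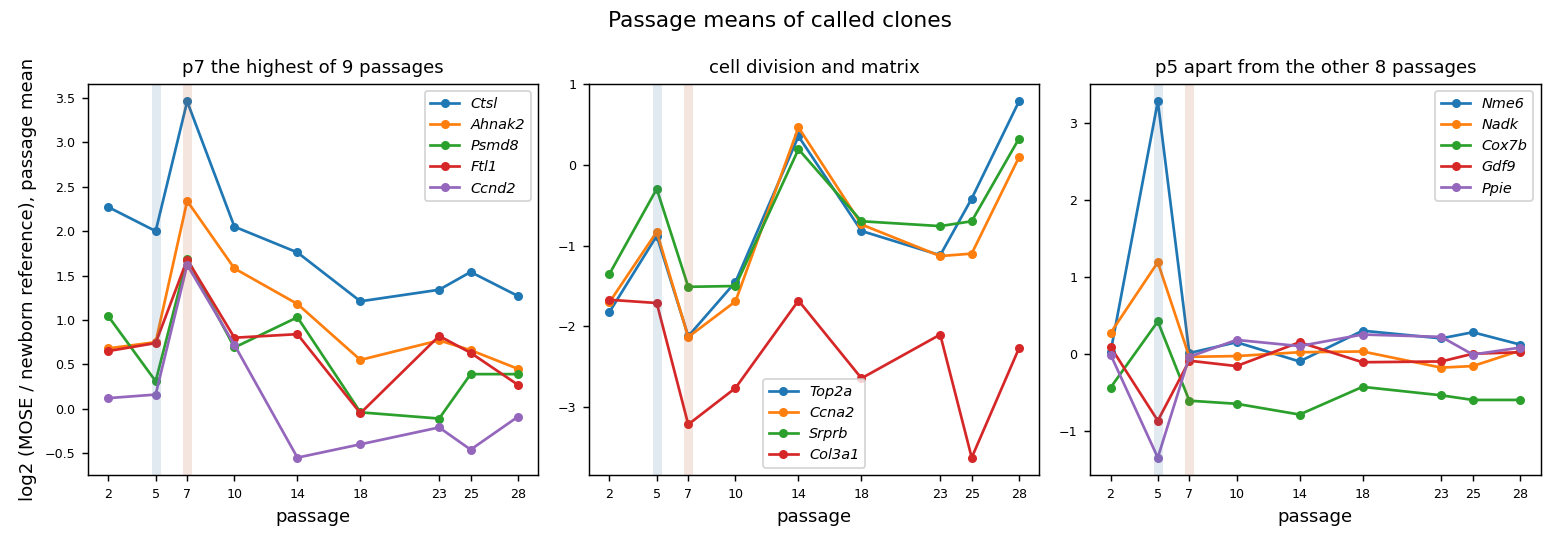
Passage means of log2(MOSE/reference) (vertical axis) against passage number (horizontal axis) for called clones, with p5 shaded blue and p7 orange. Left, genes highest at p7, such as Ctsl at 3.46. Middle, division genes and Col3a1, with Top2a at -0.88 at p5 and -2.12 at p7. Right, genes whose p5 value lies apart from the other 8 passages, such as Gdf9 at -0.87.

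A comparison that shares no array with this one, p10 against p2, called 1036 of 15254 clones (6.79%) at an adjusted p under 0.05 (limma), 3.84% higher and 2.96% lower. Of the 55 clones called here it called 6 in the same direction and 5 in the opposite one. In the same direction were Cd63 (0.49 in clone H3119E05), Ckmt1, a mitochondrial creatine kinase (0.94), Ahnak2 (0.90), Col3a1 (-1.09 in clone H3114H12), Ehd4 (-0.73) and Kbtbd12 (-0.63). In the opposite direction were Neat1 (-2.90), Hbb-y (-1.92), Mylk (-1.43), Hsd17b4 (-1.31) and 1 clone without a symbol. Mylk and Neat1 were therefore called higher at p7 than at p5 and lower at p10 than at p2.

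Of the 55 called clones 14 had no symbol, 9 higher and 5 lower. The clone L0245D04 had the widest rise (2.74), from between -3.31 and -0.93 at p5 to between -0.04 and 0.62 at p7, with its reference channel lower by 2.14 and its MOSE channel at 0.00. The clone J1037C03 read 0.82, 0.66, 1.06 and 0.96 at p5 and -1.68, -1.87 and -1.15 at p7 (-2.38, SE 0.12, limma adjusted p = 0.00412), and fell by 3.31 in the MOSE channel, with spots marked as not found on 3 of the p5 arrays. The clone H3119B07, annotated as similar to the mitochondrial NADH dehydrogenase subunit 4, rose by 2.01 with its reference channel lower by 2.33. H3092F06, lower by 2.06, had spots marked as not found on all 4 p5 arrays. Names for the remaining clones were not used here.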

How the data were processed

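The authors hybridized 1 RNA preparation per passage against a newborn reference and deposited GenePix fluorescence intensity and local background of both channels for each spot, and a table of normalized log2 ratios, used as an alternative. From the intensities, in R 4.3.3 with limma 3.58.1, background was subtracted (net signals under 0.5 set to 0.5), print-tip loess fitted in 32 blocks, arrays scaled over all 35, reverse ratios turned and spots of a clone averaged. The 7 arrays were fitted with passage and dye orientation as terms (4 residual and 2.699 prior degrees of freedom). The test was also run on simulated arrays with independent noise and no dye effect, which cannot show how it behaves on these arrays. The dye term called 0 clones (limma). Symbols were current for 9157 clones, updated for 856, as annotated for 85 and lacking for 5156. Named were the 15 widest called rises and falls by gene (filled by the lowest p), up to 4 members of each list and a few genes of the study. Other list members and clones without a symbol were named after their values were seen. Members and lists were chosen with earlier results of these data known. Rows of the table were matched to clones by rank correlation (14758 of 15023). Arrays limit precision by their number. Alternatives are given at the end. Some members of the lists are not reported here by name.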

Additional observations from a re-analysis of the deposited data

Results flagged for a closer look

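A Dixon test at the 95% level was made on the 4 p5 arrays of 126 clones, and 1 array stood apart in 8 of them. Chance alone marks about 1 in 20 such groups. The p7 arrays, 3 in number, were not tested. For Cd63 (H3075G01) the p5 array r1 read -0.17 and the others 0.08 to 0.13. For Ckmt1 array d1 read 0.18 against 0.08 to 0.10, and for Psmd8 array r2 read 0.44 against 0.26 to 0.28. For Col3a1 (H3114H12) array r2 read -1.37 against -1.85 to -1.80. For the clone J0503B10, without a symbol, array r2 read -0.38 against -0.10 to -0.05. In these 5 called clones the p5 array that stood apart did not reach the p7 arrays, which held for every called clone. For the called Prkcsh clone array d1 read 1.42 against 1.98 to 2.06, with 3 of the 4 spots marked as not found. For Malat1 (H3109A04) array d2 read 1.33 against 2.17 to 2.18, and for Spp1 array d1 read -3.16 against -4.26 to -4.16, neither of them called.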

How the results depend on the processing

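The 55 called clones became 5 at the methods' threshold, 16 with loess over the whole array (9 of them among the 55), 105 with quantile normalization, 158 without scaling, 193 with normexp, 217 with no background correction, 358 in the fit of all 35 arrays and 165 in the authors' table. Limiting spots gave 163 calls (above background on all 7 arrays) or 278 (without spots marked as not found). Limits chosen after seeing the data gave 305 (1.5 times background) and 298 (no spot not found). The channels alone gave 96 (MOSE) and 94 (reference, chosen after seeing the data), with 10 and 2 of the 55 among them. The array numbers share d1, d2 and r1 between passages but do not pair them, since same-numbered deviations correlated at only 0.0047 to 0.0587. With the replicate number as a block 3 clones were called, 0 of the 55 among them. Leaving out 1 array gave 2 to 191 calls: 191 without p7 r1, 2 without p7 d2 or p5 r1, 4 without p5 d1, 6 without p5 d2, 10 without p7 d1 and 46 without p5 r2. The cause was not tested for any of these. Of the called clones, p10 against p2 called 6 in the same direction, 0 at the methods' threshold, 3 without the dye term, 11 without scaling and 2 to 5 with 1 array left out. List medians moved with loess over the whole array to 0.29 (lysosomal), -0.54 (G2/M), -0.99 (imprinted) and -0.51 (collagens), and without scaling to -0.35 (G2/M). With 1 array left out they ranged from -0.54 to -0.40 (G2/M), -0.27 to -0.06 (S phase) and -0.47 to -0.19 (collagens). The MOSE channel alone was fitted with the dye term, so its values differ from the plain channel differences given above. In that fit 45 of the 55 called clones kept their sign. Signs turned there for, among others, Ppie (-0.11), Tank (-8.12), Zglp1 (-0.26), Syngr1 (-0.45), Tnc (0.75), Spp1 (0.41), Wt1 (0.16) and Aldoc (-0.44), with loess over the whole array for Tank (-0.34), Wt1 (0.45) and Aldoc (-0.14), without scaling for Aldoc (-0.01), and in the authors' table for Tra2a (0.07). Without p7 r1 they turned for Wt1 (-0.67 to 0.37 over all arrays left out), Lgals1 (-1.02 to 0.08) and Malat1 (-0.30 to 0.02).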

Other observations

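Several other gene lists had medians close to that of all genes. The 76 measured cytosolic ribosomal protein genes had a median of 0.07 and no call. At an unadjusted p under 0.05, 12 of their 187 clones were higher (6.42%, against 8.06% of all clones) and 5 lower (2.67%, against 8.19%). The 41 translation factors stood at -0.02 and the 17 glycolysis genes at 0.00, with no call. Splicing factors and hnRNPs, with a median of -0.08, had a larger share of lower clones than all clones did. Of their 71 clones, 14 were lower (19.7%, against 8.19%) and 4 higher (5.63%, against 8.06%) at that p. So did high mobility group and histone genes, with a median of 0.05. Of their 24 clones, 7 were lower (29.2%, against 8.19%) and 2 higher (8.33%, against 8.06%), with no call (limma).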
